A study of Homo sapiens with 6 samples.

Results

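The genes described here are 31 target genes of the transcription factor p53, or close partners of it. They were chosen by symbol from what is known of the pathway, with earlier results of these data known, and no threshold on a measured value was used. All 31 were found by symbol among the 17280 genes of the deposited table. The cells were CAL-27, a human cancer line derived from a squamous carcinoma of the tongue, kept as spheres, which are floating clusters used to enrich for stem-like cells, and their RNA was sequenced in 6 libraries. The control group, CON, holds 3 libraries with no agent named. The other group, LF3, also holds 3 libraries, whose titles name LF3, an inhibitor of Wnt signalling that keeps beta-catenin from TCF4, and the exposure is given as 24 h. The treatment field of the LF3 libraries names elesclomol with copper instead, so every direction below compares libraries by title, whichever agent they received. All 6 libraries come from 1 cell line, and the labels do not say whether replicates were grown apart, so the p-values reflect the spread among these libraries, which may be technical in part or whole.

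Values are TPM, each gene's share of a library's transcripts after correction for gene length, so levels can be compared between genes. TPM does not hold the number of reads, so the depth of a library is unknown and no counting error could be computed. TPM values are given as mean ± SD with n = 3. Changes are differences of log2(TPM + 1) between group means, LF3 minus CON, ± the standard error of limma, a linear model fitted across all genes; the added 1 understates the change of low genes. A gene is called higher or lower where its limma adjusted p is under 0.05. In bulk RNA, fewer cells that express a gene and less RNA per cell cannot be told apart. Of 9 squamous epithelial markers, 8 averaged at least 1 TPM over the libraries, the level needed for testing, while KRT14, a basal keratin, was nearly absent (0.777 ± 0.0757 TPM in CON, 0.447 ± 0.143 TPM in LF3). Of 8 markers of other cell types, CD68, a lysosomal protein of macrophages that other cells also make, went from 334 ± 6.49 TPM to 47.4 ± 2.25 TPM. PTPRC and COL3A1, which mark leukocytes and fibroblasts, averaged 0.0133 and 0.00667 TPM in CON and were listed at 0 in every LF3 library. The squamous markers summed to 1197 to 1219 TPM in CON and 1698 to 1733 TPM in LF3, but they did not move together. KRT5 went from 102 ± 3.43 to 454 ± 6.66 TPM and SFN from 339 ± 18.2 to 608 ± 6.02 TPM, while KRT17 went from 200 ± 8.66 to 58.8 ± 0.706 TPM and DSG3 from 9.26 ± 0.546 to 7.23 ± 0.805 TPM. Of the 8 tested, 5 were called higher and 2 lower, which became 3 and 4 after scaling by median ratios and 2 and 5 after quantile normalization, the alternative scales described with the counts below. The other markers, nearly all CD68, summed to 339 to 351 TPM and 51.3 to 56.0 TPM. The part of either list in the values below was not tested.

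p53 is a tetrameric protein that is stabilised by DNA damage and other stress and binds DNA at a pair of decamer repeats. Its targets stop the cell cycle, repair DNA, start cell death, adjust metabolism and, through MDM2, have p53 itself degraded, which closes a feedback loop. Many p53 targets also answer to other transcription factors, among them the p53 relative p63, which squamous cells express.

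The p53 consensus response element was searched for in RefSeq promoters (GRCh38.p14, 250 bases before to 50 after each start), as a pair of decamers 0 to 13 bases apart with the core C and G of each kept and at most 2 mismatches in all. The element reads the same on both strands, so 1 search covers both, and it was the only motif searched. Not every gene of the deposited table had a promoter in the set searched. Of the members, 24 had one there, while FBXO22, GADD45A, PHLDA3, RRM2B, TNFRSF10A, TNFRSF10B and TP53INP1 had none. The search therefore says nothing about an element in those genes. The search matched 5 of the 24 members. It matched 2.68% of the 19789 promoters searched, all of genes in the deposited table, or 3.69% of the 13784 genes searched. With 3 mismatches it matched 8 members, adding PLK2, SESN1 and ZMAT3, and 16.4% of genes. All 5 matches are shown, since their genes did not move alike in LF3. Capitals mark the decamers:
AEN: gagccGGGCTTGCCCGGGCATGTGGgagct
FAS: ctcctGGACAAGCCCTGACAAGCCAagcca
FDXR: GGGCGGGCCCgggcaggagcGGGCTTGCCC
MDM2: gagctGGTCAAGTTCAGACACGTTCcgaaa
DDB2: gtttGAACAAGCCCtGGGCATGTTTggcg
The stretches lie at chr15:88621301-88621330 on the plus strand for AEN, chr10:88991304-88991333 on the plus strand for FAS and chr17:74872996-74873025 on the minus strand for FDXR. The MDM2 stretch is at chr12:68808918-68808947, before an inner start of the gene, and the DDB2 stretch at chr11:47214975-47215003, just after a start, both on the plus strand. DDB2 matched with 0 mismatches and the other 4 with 2. In LF3, AEN, FAS and FDXR were called higher, MDM2 was called lower, and DDB2 was not called. A match is a description of letters in this window and no measure of binding.

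The p53 target genes did not move as a block. In LF3 the cell cycle inhibitor gene CDKN1A and the death receptor gene TNFRSF10B, the most abundant members in CON, both fell, and so did TP53INP1, TP53I11, MDM4 and SESN1. The nuclease gene AEN, the metabolic gene TIGAR, the autophagy gene DRAM1, TP53I3, TRIAP1 and FBXO22 rose. Of 30 members tested, 14 were called higher and 11 lower, together 83.3% of them, where 85.5% of all 12195 genes tested were called. Members called higher made up 46.7% of those tested against 53.2% of all genes, and members called lower 36.7% against 32.3%. SPATA18, with a mean under 1 TPM, was not tested, and TIGAR passed that filter through its LF3 libraries alone. The median log2 fold change was 0.063 over the 30 tested members and 0.24 over all genes tested. Rescaling each library by its median ratio moved the median of all genes to -0.0055 and that of the members to -0.18, with 12 members then higher and 14 lower, against 42.6% and 42.7% of all genes. Quantile normalization gave 13 higher and 15 lower, against 43.9% and 41.4%. In both rescalings, 12 of the 14 rises and all 11 falls were called in the same direction, the exceptions being PPM1D and POLH. Quantile normalization also lowered the median of all genes, to 0.027, so in both rescalings a called fall was harder to lose than a called rise. The share of all genes that kept their call in every scale was not computed.

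**Figure D1:**
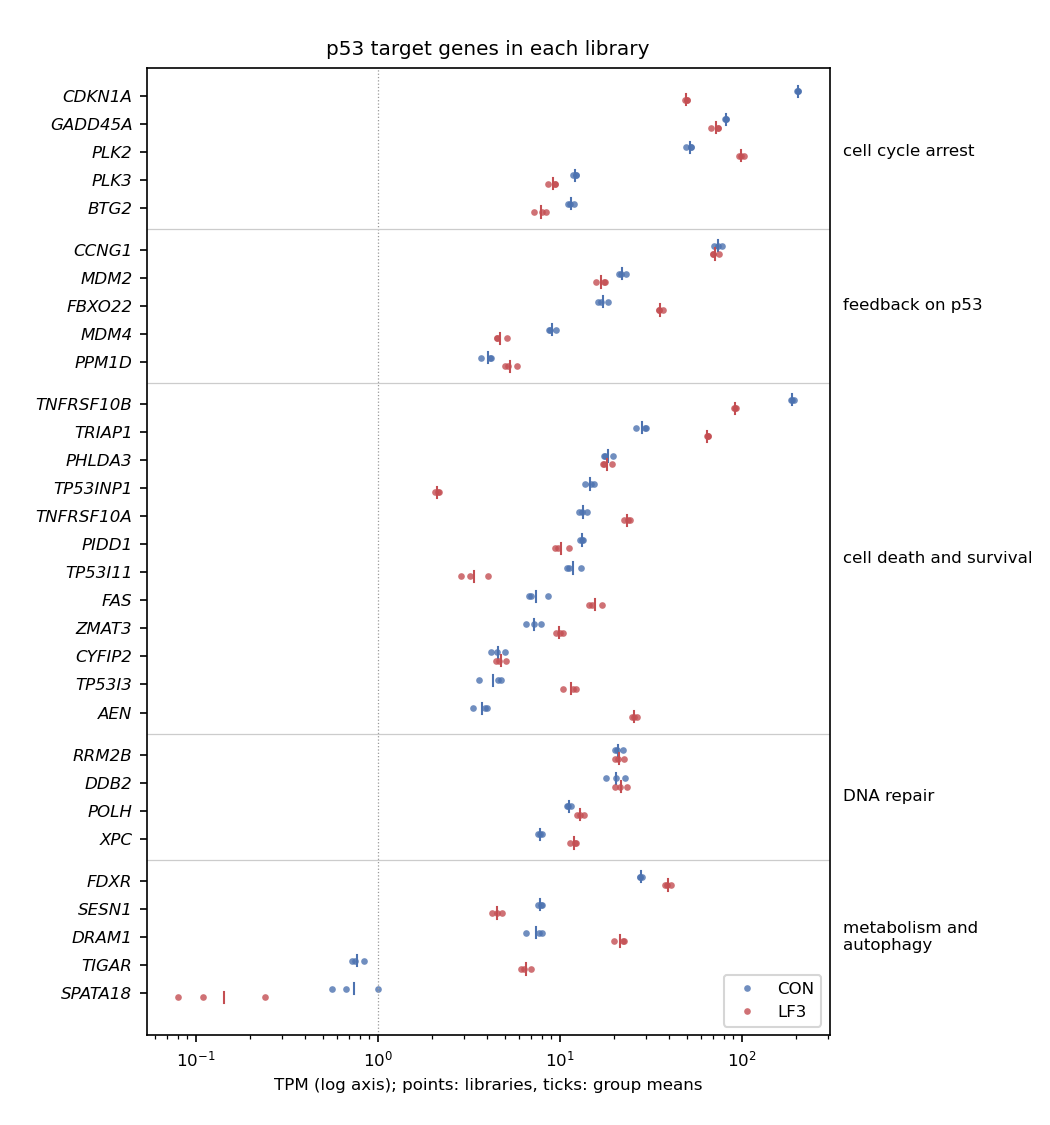
TPM of each p53 target gene on a log axis, by role and, within a role, by level in CON; blue points are the 3 CON libraries, red points the 3 LF3 libraries, short vertical lines the group means, and the dotted line 1 TPM. CDKN1A and TNFRSF10B lie highest in CON, AEN and TIGAR move to the right in LF3, and TP53INP1 and TP53I11 move to the left.

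At baseline, most members were above the level of the median gene. In CON the median member stood at 12.1 TPM and the median gene of the table at 7.33 TPM, with 24 of 31 members above the latter. CDKN1A and TNFRSF10B were over 100 TPM, 8 members lay from 20 to under 100 TPM, 15 from 5 to under 20, 4 from 1 to under 5, and TIGAR and SPATA18 were under 1 TPM. CDKN1A held 22.0 to 22.7% of the summed TPM of the 31 members in CON and TNFRSF10B 20.7 to 21.04%. In LF3 these shares were 6.13 to 6.39% and 11.5 to 11.7%. The summed level of the members went from 909 ± 14.5 to 794 ± 8.63 TPM, whereas without CDKN1A and TNFRSF10B it went from 516 ± 10.9 to 652 ± 7.55 TPM. Both genes left out were the most abundant in CON and fell, and the sums were not computed on rescaled values. Median-ratio scaling divides by factors of 0.905 to 0.919 in CON and 1.07 to 1.12 in LF3. Dividing by them brings the sums without both genes closer together. In LF3 no member exceeded a mean of 100 TPM, PLK2 ranked first, TNFRSF10B second and CDKN1A sixth.

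Of the 5 arrest genes, 4 were called lower in LF3 and 1 higher, in the deposited scale and in both rescalings, where 32.3% of all genes tested were called lower as deposited, 42.7% after median-ratio scaling and 41.4% after quantile normalization. CDKN1A (NCBI gene 1026) encodes p21, which inhibits cyclin-dependent kinases and is the best known arrest gene downstream of p53. It stood at 201.18, 203.24 and 205.35 TPM in CON and at 50.36, 48.83 and 50.12 TPM in LF3. The LF3 libraries were all far below the CON libraries, with a change of -2.01 ± 0.037 (limma adjusted p = 5.57e-12) and a mean 4.08 times lower. PLK2 (10769), a kinase of the polo family that p53 induces, went the other way. Its values were 52.60, 52.93 and 49.78 TPM in CON and 103.27, 98.98 and 96.25 TPM in LF3, a change of 0.93 ± 0.045 (limma adjusted p = 6.74e-09), with no overlap between the groups. The related kinase gene PLK3 fell from 12.1 ± 0.229 to 9.17 ± 0.485 TPM, a change of -0.37 ± 0.067 (-0.62 after median-ratio scaling and -0.65 after quantile normalization). BTG2, which encodes an antiproliferative protein that acts on mRNA deadenylation, fell from 11.5 ± 0.402 to 7.89 ± 0.609 TPM, by 0.49 as deposited and 0.74 in both rescalings on the log2 scale. GADD45A, a stress sensor that binds PCNA and cyclin-dependent kinase 1, had the smallest of the called falls among arrest genes, from 81.6 ± 0.571 to 72.2 ± 4.04 TPM (-0.18 ± 0.047), and its groups did not overlap. Rescaled, its change was -0.45 and -0.53.

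Feedback genes were divided. MDM2 (4193), the ubiquitin ligase that marks p53 for degradation and is itself a p53 target through the inner promoter shown above, stood at 21.75, 23.16 and 21.24 TPM in CON and at 17.71, 17.44 and 15.80 TPM in LF3. Every LF3 library was below every CON library, with a change of -0.36 ± 0.064 (limma adjusted p = 0.00032) that became -0.62 after median-ratio scaling and -0.66 after quantile normalization. MDM4 (4194), a relative of MDM2 that inhibits transcription by p53, fell more, from 8.88, 9.50 and 8.72 TPM to 4.51, 5.11 and 4.53 TPM, with a change of -0.81 ± 0.078. FBXO22 (26263), an F-box protein that targets methylated p53 and its cofactor KDM4A, rose from 16.31, 16.91 and 18.53 TPM to 35.15, 35.13 and 36.77 TPM, a change of 1.01 ± 0.060 (limma adjusted p = 3.45e-08). PPM1D, the phosphatase WIP1 that reverses damage signalling, went from 4.03 ± 0.266 to 5.34 ± 0.420 TPM (0.33 ± 0.087) and was called higher, a call lost after median-ratio scaling (0.11, limma adjusted p = 0.233). CCNG1, which encodes cyclin G1 and recruits phosphatase 2A to MDM2, overlapped between groups at 74.3 ± 3.82 and 71.4 ± 3.12 TPM. Its change was -0.056, with a 95% interval from -0.17 to 0.057, but both median-ratio scaling (-0.33) and quantile normalization (-0.40) gave a call in the lower direction.

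**Figure D2:**
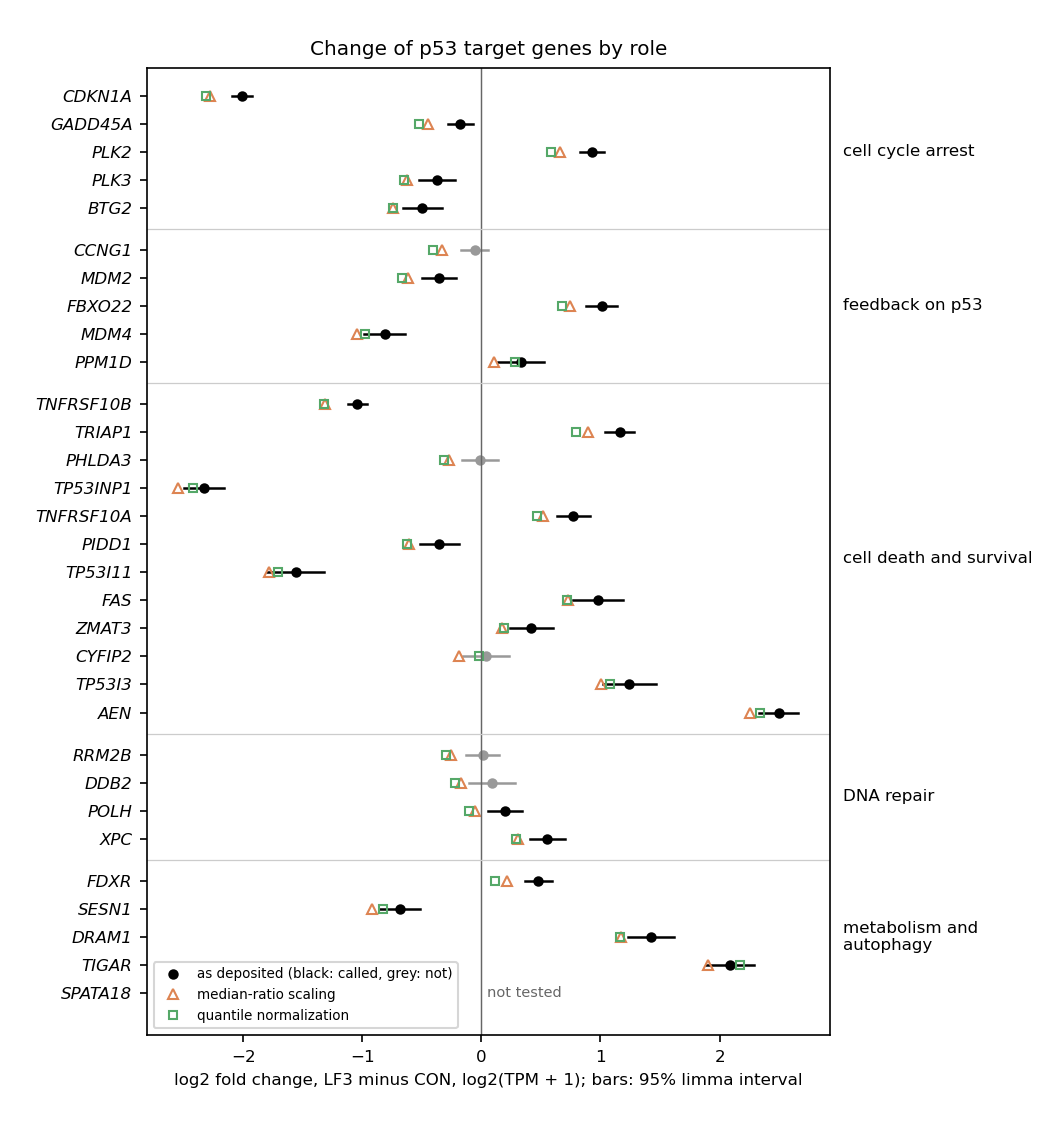
Log2 fold change of each tested member, as the difference of log2(TPM + 1) between LF3 and CON, by role; circles are the deposited scale with 95% limma intervals (black where called, grey where not), triangles median-ratio scaling and squares quantile normalization. AEN at 2.50, TIGAR at 2.08, TP53INP1 at -2.33 and CDKN1A at -2.01 lie farthest from 0, and the rescaled values mostly lie to the left of the deposited ones.

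Of 12 cell death genes, 6 were called higher and 4 lower, or 50.0% and 33.3%, near the 53.2% and 32.3% of all genes tested. After each rescaling, 6 were called higher and 5 lower. Receptors of the same family were called in opposite directions. TNFRSF10B (8795), a receptor through which the ligand TRAIL starts apoptosis, stood at 188.89, 194.00 and 187.29 TPM in CON and at 92.39, 92.96 and 90.43 TPM in LF3. That is a change of -1.04 ± 0.036 (limma adjusted p = 4.37e-10) with widely separated groups. The other TRAIL death receptor gene, TNFRSF10A (8797), rose from 13.20, 12.70 and 14.20 TPM to 22.60, 23.71 and 24.28 TPM, a change of 0.77 ± 0.063 (0.51 and 0.47 rescaled). TNFRSF10B nevertheless remained the more abundant of the pair in every library. FAS (355), the receptor of FAS ligand, rose from 6.95, 8.59 and 6.83 TPM to 15.14, 17.20 and 14.52 TPM (0.98 ± 0.095, limma adjusted p = 2.27e-06). PIDD1, an adaptor that assembles a caspase-2 platform, fell from 13.2 ± 0.218 to 10.2 ± 0.920 TPM (-0.35 ± 0.074), and by more after rescaling (-0.60 and -0.63). It shares exonic bases with RPLP2, a far more abundant gene given with the overlaps below.

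Among the intracellular death genes, AEN and TP53INP1 moved farthest and in opposite directions. AEN (64782) encodes a nuclease that digests DNA and RNA in apoptosis, and its promoter match is shown above. It stood at 3.89, 3.35 and 4.0 TPM in CON and at 24.84, 26.63 and 25.70 TPM in LF3, a mean 6.87 times higher and a change of 2.50 ± 0.075 (limma adjusted p = 1.68e-10). TP53INP1 (94241), a nuclear and autophagy-linked protein that promotes the killing activity of p53, stood at 14.92, 15.42 and 13.81 TPM in CON and at 2.07, 2.15 and 2.17 TPM in LF3. The fall was -2.33 ± 0.076 (limma adjusted p = 3.18e-10), a mean 6.91 times lower, and the 3 LF3 libraries were nearly alike. TP53I11 (9537), another p53-induced gene, fell from 11.33, 13.08 and 10.98 TPM to 4.02, 2.87 and 3.21 TPM (-1.56 ± 0.11). TP53I3 (9540), a quinone oxidoreductase linked to reactive oxygen in apoptosis, rose from 3.62, 4.57 and 4.74 TPM to 10.50, 12.27 and 11.84 TPM (1.24 ± 0.099).

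TRIAP1 (51499), which protects against apoptosis as part of a mitochondrial lipid transfer complex, rose from 26.35, 29.80 and 29.36 TPM to 64.46, 65.14 and 65.22 TPM (1.16 ± 0.054, limma adjusted p = 4.69e-09), with no overlap. ZMAT3, an RNA-binding zinc finger protein, rose less, from 7.22 ± 0.681 to 9.98 ± 0.427 TPM (0.42 ± 0.081). Its change shrank to 0.18 after median-ratio scaling (limma adjusted p = 0.0459) and 0.19 after quantile normalization (limma adjusted p = 0.0385), just inside the threshold. PHLDA3, which opposes AKT at the membrane, overlapped between groups at 18.3 ± 1.12 and 18.2 ± 1.13 TPM, with a change of -0.012 and a 95% interval from -0.16 to 0.14. It was called lower after median-ratio scaling (-0.27) and quantile normalization (-0.31). CYFIP2, a member of the WAVE actin complex, was not called in any of the 3 scales; its levels were 4.59 ± 0.386 and 4.74 ± 0.329 TPM, and its 95% interval on the deposited scale ran from -0.16 to 0.23.

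Among the 4 repair genes, the largest change as deposited was that of XPC. XPC (7508), which recognises bulky damage in nucleotide excision repair, was higher at 7.81, 8.03 and 7.59 TPM in CON against 12.19, 12.25 and 11.36 TPM in LF3, a change of 0.55 ± 0.067 (limma adjusted p = 1.46e-05), with 0.31 and 0.29 after rescaling. DDB2 (1643), its partner in recognising ultraviolet damage, overlapped widely. Its values were 18.04, 22.88 and 20.38 TPM in CON and 20.17, 21.48 and 23.48 TPM in LF3, with a 95% interval of the change from -0.11 to 0.28. DDB2 was called lower under quantile normalization (-0.22). POLH, the polymerase that copies past ultraviolet damage, stood at 11.2 ± 0.346 and 12.96 ± 0.570 TPM, a change of 0.20 ± 0.065 (limma adjusted p = 0.0153). Its sign turned in both rescalings, to -0.057 and -0.10 without a call, and the call was lost without CON replicate 1 (limma adjusted p = 0.0531) or LF3 replicate 1 (limma adjusted p = 0.0657). RRM2B, the p53-induced subunit of ribonucleotide reductase, stood at 20.60, 22.17 and 20.23 TPM in CON and at 22.57, 20.82 and 20.09 TPM in LF3, so the groups overlapped. Its change had a 95% interval from -0.13 to 0.15, and it was called lower in both rescalings (-0.25 and -0.29). Among repair genes, the rise of XPC was thus the call that kept its direction in all 3 scales.

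Genes of metabolism and autophagy included the member with the highest ratio of means. TIGAR (57103), a phosphatase that lowers glycolytic flux and feeds the pentose phosphate pathway, stood at 0.84, 0.75 and 0.72 TPM in CON and at 6.38, 6.98 and 6.17 TPM in LF3, a mean 8.45 times higher from a level under 1 TPM. DRAM1 (55332), a lysosomal membrane protein that promotes autophagy, rose from 7.72, 6.51 and 8.01 TPM to 22.64, 22.18 and 19.80 TPM (1.42 ± 0.085, limma adjusted p = 3.64e-08). FDXR (2232), the mitochondrial reductase that supplies electrons to ferredoxins, including FDX1, rose from 27.58, 27.74 and 28.37 TPM to 41.03, 37.77 and 38.98 TPM. Its change was 0.48 ± 0.050, with 0.21 after median-ratio scaling and 0.12 after quantile normalization, both called. SESN1 (27244), a sestrin that restrains the growth kinase mTORC1, fell from 7.90, 8.02 and 7.62 TPM to 4.51, 4.80 and 4.23 TPM (-0.68 ± 0.077). SPATA18, which acts in the clearing of damaged mitochondria, was listed at 1.0, 0.67 and 0.56 TPM in CON and at 0.08, 0.24 and 0.11 TPM in LF3. The groups of SPATA18 did not overlap, at levels too low to enter the test.

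**Figure D3:**
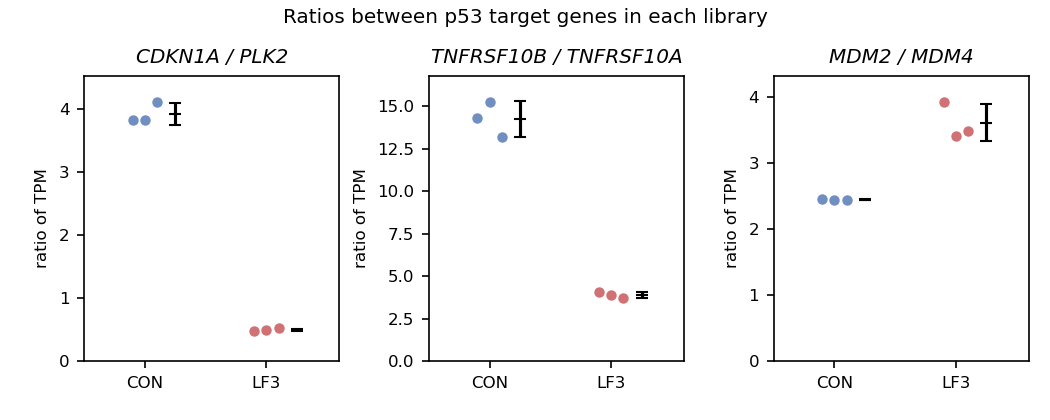
Ratio of the TPM of 2 members in each library, with group means and SDs beside the points; blue is CON, red is LF3, and each axis starts at 0. CDKN1A over PLK2 drops from 3.93 to 0.501, TNFRSF10B over TNFRSF10A from 14.3 to 3.91, while MDM2 over MDM4 goes from 2.44 to 3.61.

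A ratio between members within a library is the same whatever single factor the library is scaled by, median-ratio scaling included, while quantile normalization can change it. CDKN1A over PLK2 was 3.93 ± 0.169 in CON and 0.501 ± 0.0177 in LF3, so the order of these arrest genes turned. TNFRSF10B over TNFRSF10A was 14.3 ± 1.04 in CON and 3.91 ± 0.182 in LF3. MDM2 over MDM4 was 2.44 ± 0.00729 in CON and 3.61 ± 0.278 in LF3, the spread being wider in LF3, where replicate 1 stood at 3.93 and the others at 3.41 and 3.49. The groups did not overlap in any of these 3 ratios, and the exact permutation test gave p = 0.1 for each (two-sided), the smallest that 3 against 3 allows. The pairs were picked after their values had been seen.

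Over all 31 members, the groups did not overlap in 26, 14 of them higher and 12 lower in LF3. This is 83.9% of the members, where 86.2% of the tested genes (53.5% higher, 32.7% lower) and 70.5% of all listed genes had groups that did not overlap. At least 1 on the log2 scale, 6 members were called higher and 4 lower, against 20.8% and 11.1% of all genes tested. After median-ratio scaling these counts were 4 and 5, against 14% and 15.3%, and under quantile normalization 4 and 4, against 14.7% and 14.2%.

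Of 21 genes of the p53 family and its regulators, 9 were called higher and 8 lower, with a median of 0.034. These are 42.9% and 38.1%, where 53.2% and 32.3% of all genes tested were called. After median-ratio scaling 4 were higher and 11 lower, or 19.0% and 52.4%, against 42.6% and 42.7%. TP63 was at 54.7 ± 2.61 and 64.2 ± 6.49 TPM with overlapping groups; it was called higher as deposited (0.22), not called after median-ratio scaling (-0.047) and called lower after quantile normalization (-0.16). TP73 stood at 3.71 ± 0.137 and 3.14 ± 0.404 TPM and was not called (-0.19, limma adjusted p = 0.0823), but was called lower after median-ratio scaling (-0.40). ATR, a kinase that signals stalled replication, rose from 5.24 ± 0.441 to 23.0 ± 2.49 TPM, and USP7, a deubiquitinase of p53 and MDM2, from 41.4 ± 1.76 to 80.8 ± 0.900 TPM. COP1, a ubiquitin ligase of p53, rose from 15.9 ± 1.74 to 36.0 ± 0.765 TPM. PPP1R13L, which encodes an inhibitor of p53, fell from 51.9 ± 2.23 to 25.0 ± 1.34 TPM. RPL11, a ribosomal protein that can bind MDM2, fell from 4857 ± 89.0 to 3206 ± 85.2 TPM.

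**Figure D4:**
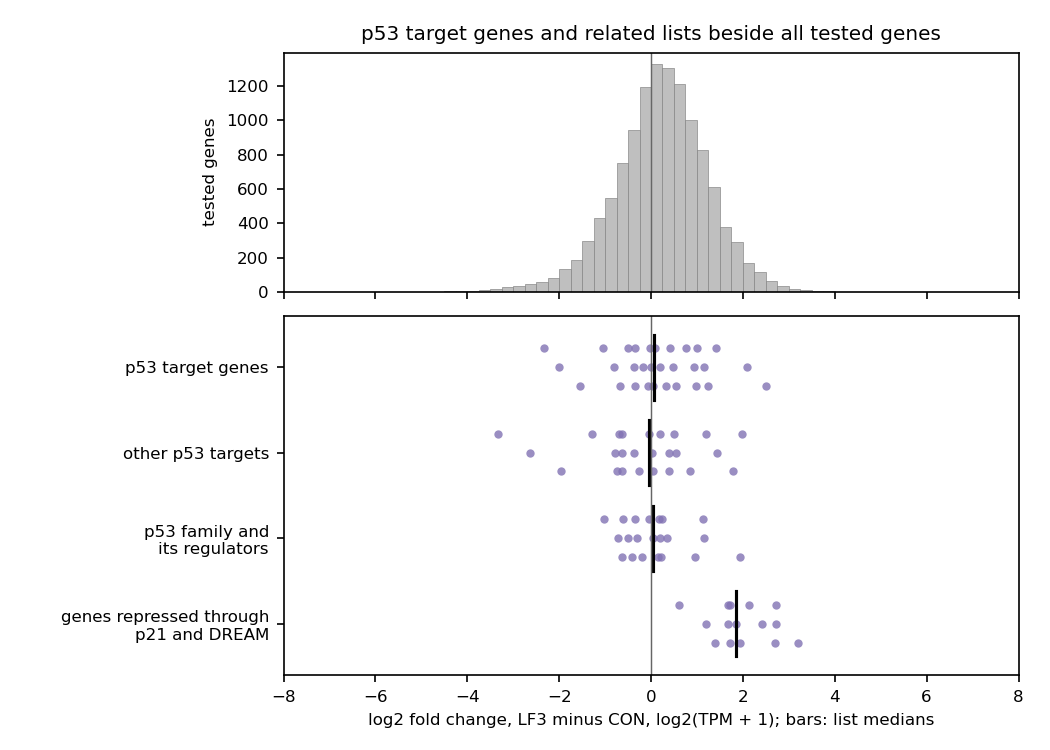
Upper panel, number of tested genes by log2 fold change (LF3 minus CON, log2(TPM + 1), bins of 0.25); lower panel, each tested gene of 4 lists as a point, offset vertically for legibility, with the list's median as a black bar. The p53 target genes, the other p53 targets and the p53 regulators spread to both sides of 0, while all 15 genes repressed through p21 and DREAM lie above 0.

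Of 28 other known p53 targets in the list used, 25 were tested, of which 10 were called higher and 12 lower, with a median of -0.039. These are 40.0% and 48.0% of those tested, beside 53.2% and 32.3% of all genes. After median-ratio scaling 7 were higher and 15 lower, or 28.0% and 60.0%, beside 42.6% and 42.7%. TNFRSF10D, a decoy receptor of TRAIL, fell from 197 ± 5.94 to 18.6 ± 0.311 TPM, and BTG1, a relative of BTG2, from 144 ± 5.54 to 22.3 ± 0.439 TPM. THBS1, an inhibitor of blood vessel growth, rose from 27.8 ± 0.412 to 112 ± 3.51 TPM, and BAX, which permeabilises mitochondria in apoptosis, from 55.9 ± 3.11 to 196 ± 11.8 TPM. SFN, the 14-3-3 sigma protein that holds cyclin B in the cytoplasm, rose from 339 ± 18.2 to 608 ± 6.02 TPM, opposite to CDKN1A. Among TNFRSF10A, TNFRSF10B, TNFRSF10C and TNFRSF10D, which encode TRAIL receptors, TNFRSF10D and TNFRSF10B had the highest TPM in CON, and both fell.

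p21 also lowers many cell cycle genes through the DREAM repressor complex. All 15 genes of a list of such targets were called higher in LF3, in the deposited scale and in both rescalings, with a median of 1.85, beside the fall of CDKN1A; of all genes tested, 53.2%, 42.6% and 43.9% were called higher in these scales. CCNB1, a mitotic cyclin, rose from 47.6 ± 1.6 to 319 ± 11.2 TPM, and CDC20, an activator of the anaphase-promoting complex, from 49.3 ± 2.65 to 326 ± 12.4 TPM. The mitotic kinase gene PLK1 rose from 13.7 ± 0.764 to 134 ± 7.33 TPM. FOXM1, a mitotic transcription factor, rose from 16.1 ± 0.333 to 89.7 ± 3.27 TPM, and BIRC5, which encodes survivin, from 35.3 ± 0.231 to 157 ± 7.61 TPM. The rise of cell cycle genes in these libraries was known when the list was made, so it is no independent evidence, and the part of CDKN1A in it was not tested.

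Some members share exonic bases with another gene on the opposite strand in GENCODE 29, and no source used here says whether the libraries kept strand, so such reads cannot be told apart. The largest shares with a partner in the table were 16.2% of the exonic bases of FBXO22 (NRG4), 8.93% of FAS (ACTA2) and 6.63% of XPC (LSM3). NRG4 stood at 2.40 ± 0.733 and 1.22 ± 0.187 TPM and ACTA2 at 10.2 ± 1.5 and 4.79 ± 0.908 TPM, both lower in mean in LF3 while their partners rose. LSM3 was at 17.3 ± 1.12 and 32.3 ± 0.563 TPM, a move in the same direction as XPC, and its part in the value of XPC was not tested. A smaller overlap, 1.82% of the exonic bases of PIDD1, is with the far more abundant RPLP2. RPLP2 fell from 5815 ± 123 to 4248 ± 6.93 TPM, in the same direction as PIDD1, and its part in the value of PIDD1 was not tested. In TIGAR, 42.6% of exonic bases belong also to AC008012.1, an overlapping gene on the same strand that was not analysed here.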

How the data were processed

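Per the labels' protocols, RNA was prepared with Trizol and sequenced from 1 end, 50 bases per read, on a BGISEQ500. HISAT, Bowtie2 and GRCm38.p6 are named in the submitters' processing notes; that build is of the mouse, while the symbols are human, so no coordinate was taken from the data, and the promoter coordinates are those of RefSeq's own table on GRCh38.p14. No source used here names the counting tool or annotation. The authors deposited TPM per gene and library with 2 decimals, and every library sums to the same total.

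The test used limma 3.58.1 in R 4.3.3 on log2(TPM + 1), with a mean-variance trend and no block, two-sided, for the 12195 genes (of 17280) averaging at least 1 TPM; p-values were adjusted by Benjamini-Hochberg over all of them, with a threshold of 0.05. All 31 members are named, as are TP63, TP73 and the 5 genes of each list of p53 regulators, other p53 targets and DREAM targets with the smallest adjusted p. Cell type markers, genes that share exonic bases with members and the targets under the closing observations were named after their values had been seen. The members, roles and lists were chosen with earlier results of these data known, and some genes are not reported here; each member was given 1 role from general knowledge, although several have more. Libraries of a group shared at most 0.541% identical values among tested genes, so none is a copy of another. All 6 were counted as separate samples, which this check cannot establish, since repeat libraries of 1 culture would also differ. Tested on simulated data for LF3 against CON (12124 genes), the procedure found 34% of true changes of 0.25 (log2), 80% of those of 0.5 and 100% of those of 1 or 2, and called 8 unchanged genes. Only 50 genes were changed at each size, all averaging at least 5 TPM, whereas 85.5% of tested genes were called in the data. These rates therefore describe a setting with few changed genes and do not carry over to the comparison itself. Other settings tried were pseudocounts (0.1, 0.5), filters (none, 5 TPM), both rescalings, limma untrended, robust or with array weights, the replicate block, and each library left out in turn. Plots were made in Python 3.11.15 with matplotlib 3.10.9.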

Additional observations from a re-analysis of the deposited data

How the results depend on the processing

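Of the 30 tested members, 24 had the same call under every alternative run, 16 in number or 1 fewer for CYFIP2, PPM1D and TIGAR, which average under 5 TPM. For 23 of the 24 the sign was the same too; the exception was CYFIP2, never called, which went from 0.039 to -0.19 after median-ratio scaling, -0.0195 under quantile normalization, -0.0089 without CON replicate 1 and -0.0061 without LF3 replicate 1. The calls of the other 6 changed with the scale, that of POLH also without CON replicate 1 or LF3 replicate 1: after median-ratio scaling POLH had -0.057 and RRM2B -0.25, and under quantile normalization POLH had -0.10, RRM2B -0.29 and DDB2 -0.22, each opposite in sign to the deposited scale; PPM1D, CCNG1 and PHLDA3 also changed their call in 1 or both. The median of the tested members, 0.063, became 0.0099 with a filter of 5 TPM, -0.18 after median-ratio scaling and -0.16 after quantile normalization, and lay between 0.000965 and 0.11 when a library was left out. It is a description of genes that moved both ways, and its sign rests on the scale. The counts of members called higher and lower and of all genes called stayed within 1.5 times the reported counts under every alternative. With the replicate block, 14 members were called higher and 11 lower, as without it. Same-numbered libraries deviated together only weakly, with correlations across genes of 0.048, 0.11 and 0.16, while other pairs ran from -0.17 to 0.074. Each LF3 library correlated best with the CON library of its number, but CON replicate 1 correlated better with LF3 replicate 2 (0.074). A pairing was thus neither shown nor excluded, and the numbers were not taken to pair the libraries. Genes called numbered 10522 with the block and 10427 without it. TPM keeps no depth, so what depth limits cannot be given; the lowest members, TIGAR in CON and SPATA18, rest on the least signal.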

Other observations

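Beyond the 5 named above, 20 other p53 targets were tested, and they are named here after their values had been seen. In the deposited scale and in both rescalings, 10 of them were called lower. Of all genes tested, 32.3% were called lower as deposited, 42.7% after median-ratio scaling and 41.4% after quantile normalization. The share of all genes called in the same direction in all 3 scales was not computed. GDF15, a secreted stress cytokine, fell from 173 ± 10.1 to 44.0 ± 6.98 TPM and PERP, a desmosomal protein that p63 also controls, from 302 ± 12.1 to 196 ± 7.88 TPM. SESN2, a sestrin like SESN1, fell from 18.2 ± 1.40 to 10.1 ± 0.222 TPM. BBC3 (the death activator PUMA) fell from 17.9 ± 3.0 to 11.1 ± 1.21 TPM and APAF1, the core of the apoptosome, from 13.5 ± 1.34 to 7.90 ± 1.07 TPM. The others were PRDM1, CDIP1, TNFRSF10C, TNFAIP8 and NINJ1.

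In all 3 scales, 4 were called higher. Of all genes tested, 53.2%, 42.6% and 43.9% were called higher in these scales, each taken alone. KITLG, the ligand of the receptor KIT, rose from 5.41 ± 0.845 to 13.7 ± 0.779 TPM and TRIM22, an interferon-induced antiviral protein, from 1.1 ± 0.122 to 4.66 ± 0.183 TPM. ASCC3, a DNA helicase, rose from 25.0 ± 1.22 to 37.1 ± 4.03 TPM and ACER2, an alkaline ceramidase, from 2.73 ± 0.370 to 4.29 ± 0.272 TPM. The remaining 6 depended on the scale. E2F7, TSKU and RPS27L were called higher as deposited and in neither rescaling, while EPHA2, ISG15 and PMAIP1 (NOXA, at 38.3 ± 3.01 and 37.2 ± 0.252 TPM) were not called as deposited and were called lower in both rescalings.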
